A study of Mus musculus with 4 samples.

Results

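The EGF-family genes described here are 9 mouse genes, of which 6 encode ligands (Hbegf, Ereg, Areg, Btc, Tgfa and Nrg1) and 3 encode receptors (Egfr, Erbb2 and Erbb3). They were taken by name from an RNA-seq table of 63759 transcripts, which were assigned to genes by position on the same strand, with the transcript spanning the longest gene body kept for each gene, and they are 9 of the 20815 protein-coding genes that the table covers. The group was chosen by the RPKM of Hbegf, whose increase on TGFB1 was among the largest in both genotypes of the same libraries, so the TGFB1 response of Hbegf is given as a description and supports nothing. All cells were mouse embryonic fibroblasts (MEF), which are fibroblasts cultured from embryos, here of C57BL/6 mice at day 15.5, and the study's methods state that they were immortalized. Both genotypes, Hmga2+/+ and Hmga2-/-, were kept in medium with 1% serum before treatment and were then given water (Ctrl) or 10 ng/ml human recombinant TGFB1, a cytokine that activates fibroblasts, for 24 h. Each of the 4 combinations has 1 library of total RNA, read on its strand in runs of 75 bases, so no difference could be set against replicates and p-values are not given. The study speaks of duplicates, and whether cultures were pooled before sequencing is not stated.

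EGF-family ligands are made as precursors anchored in the cell membrane and are released by membrane proteases, mainly of the ADAM family. They bind receptor tyrosine kinases that pair on the cell surface and signal through the RAS and ERK cascade. EGFR binds HBEGF, EREG, AREG, BTC and TGFA, ERBB3 binds neuregulins such as NRG1, and ERBB2 has no known ligand of its own and serves as a partner of the others. In fibroblasts EGFR is the best known receptor of the family and drives growth and migration.

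Levels are given in RPKM, a read count divided by transcript length and by library depth, so levels of different genes can be set side by side. Between 56140000 and 57300000 mapped reads per library were derived from the steps between low RPKM values. Intervals beside values are exact 95% intervals of counting error only and compare libraries, not conditions, since reads are not independent molecules and the spread between cultures is unknown. Hmga2, the deleted gene, had levels in Hmga2+/+ MEF of 14.8 RPKM with Ctrl and 40.7 RPKM with TGFB1, and no reads in either Hmga2-/- library, where it was at least 1191-fold lower in Ctrl and at least 3299-fold lower in TGFB1 against a floor of 3 reads per library. All 6 fibroblast markers, collagen genes among them, reached 1 RPKM in every library, and their summed level ran from 1562 to 2003 RPKM. Epithelia are a known source of EGF-family ligands, and none of 6 epithelial markers reached 1 RPKM in any library (summed level 0.443 to 1.21 RPKM, with Krt5 at 0 in 3 libraries and Krt8 in 1). The known TGFB1 targets Ccn2 and Smad7 rose in both genotypes, by log2 changes of 3.71 and 0.73 in Hmga2+/+ MEF and 3.85 and 1.12 in Hmga2-/- MEF.

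The promoters of Areg and Btc are shown because these genes lie in the same run of ligand genes on chromosome 5 and had TGFB1 responses of opposite sign. Each sequence is from RefSeq (GRCm38.p6), runs 5′ to 3′ along the gene from 250 bases before the annotated start to 50 bases after it, and has in capitals the letters of any motif found. For Areg, on the plus strand at chr5:91139349-91139648, the capitals mark a CRE motif, a GC box on each strand and a TATA box. For Btc, on the minus strand at chr5:91402945-91403244, none of the motifs searched was found.
Areg: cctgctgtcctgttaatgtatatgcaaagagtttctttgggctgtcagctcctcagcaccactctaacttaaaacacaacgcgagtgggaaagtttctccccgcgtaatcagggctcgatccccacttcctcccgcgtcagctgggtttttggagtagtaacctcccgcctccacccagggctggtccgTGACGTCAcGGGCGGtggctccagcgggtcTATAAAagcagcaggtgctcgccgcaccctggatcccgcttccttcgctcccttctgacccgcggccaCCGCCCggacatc
Btc: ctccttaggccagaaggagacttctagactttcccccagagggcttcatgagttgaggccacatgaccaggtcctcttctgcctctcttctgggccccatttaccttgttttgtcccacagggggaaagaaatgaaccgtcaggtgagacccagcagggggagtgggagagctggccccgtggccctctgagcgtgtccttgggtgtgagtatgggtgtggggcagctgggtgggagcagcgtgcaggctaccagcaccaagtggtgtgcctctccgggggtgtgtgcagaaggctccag
Positions below count from the annotated start, with 8 motifs searched on both strands in 32851 mouse promoters of the same length. The CRE motif (TGACGTCA), the letters known as the cAMP response element, began 61 bases before the start of Areg and was in 1.79% of all promoters. The TATA box (TATAAA) began 31 bases before the start and was in 13.6% of promoters, and the GC box (GGGCGG) was in 35.7%. Of the other motifs, the AP-1 motif (TGANTCA) was in 7.81% of promoters, the CAGA box (AGCCAGAC) in 1.29%, the SMAD palindrome (GTCTAGAC) in 0.213%, the TEAD motif (GGAATG) in 14.7% and the CCAAT box (CCAAT) in 37.4%. Among the other members with a promoter sequence, Tgfa held 2 GC boxes, Egfr held 1 GC box, and Erbb2 held a TEAD motif and a CCAAT box. A match of letters is a description of the sequence and does not show that a factor bound there.

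With TGFB1, the 4 ligand genes Hbegf, Ereg, Areg and Nrg1 rose in both genotypes, whereas Egfr and Erbb2, which encode the 2 most abundant member receptors, stayed within 1.5-fold of their Ctrl levels. A gene was called higher or lower where its RPKM differed at least 1.5-fold and it reached 1 RPKM in at least 1 library. Of the 9 genes, 6 reached 1 RPKM, and Areg did so only in the TGFB1 libraries, so that its passing this limit is not independent of its change. Btc, Tgfa and Erbb3 stayed under 1 RPKM in every library. In Hmga2+/+ MEF 4 members were called higher, against 11.4% of the 10742 protein-coding genes tested, and 0 were called lower, against 16.8%. In Hmga2-/- MEF the same 4 members were called higher, against 13.1% of genes, and 0 were called lower, against 15.1%. These counts include Hbegf, which was chosen for this contrast. In Hmga2-/- MEF 3 members were called with the transcript of the longest counted length and at 2-fold, where Nrg1 dropped out (log2 change 0.35 and 0.86). That Nrg1 transcript, of 3943 bases from 31845100 to 31849043, is an unspliced block within the gene and not a fuller mRNA. Without the limit of 1 RPKM, Tgfa joined the genes at least 1.5-fold higher in both genotypes, and Btc and Erbb3 were at least 1.5-fold lower in Hmga2+/+ and in Hmga2-/- MEF. Over all 20815 protein-coding genes, 11.6% were higher and 19.2% lower by that measure in Hmga2+/+ MEF, and 13.0% higher and 18.4% lower in Hmga2-/- MEF. Without Hbegf, the other 8 members had a median log2 change of 0.44 in Hmga2+/+ MEF and of 0.38 in Hmga2-/- MEF, beside −0.08 over 14177 and −0.02 over 14178 protein-coding genes with reads in both libraries of the genotype. In bulk RNA, more transcript per cell and more cells that make it cannot be told apart.

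**Figure D1:**
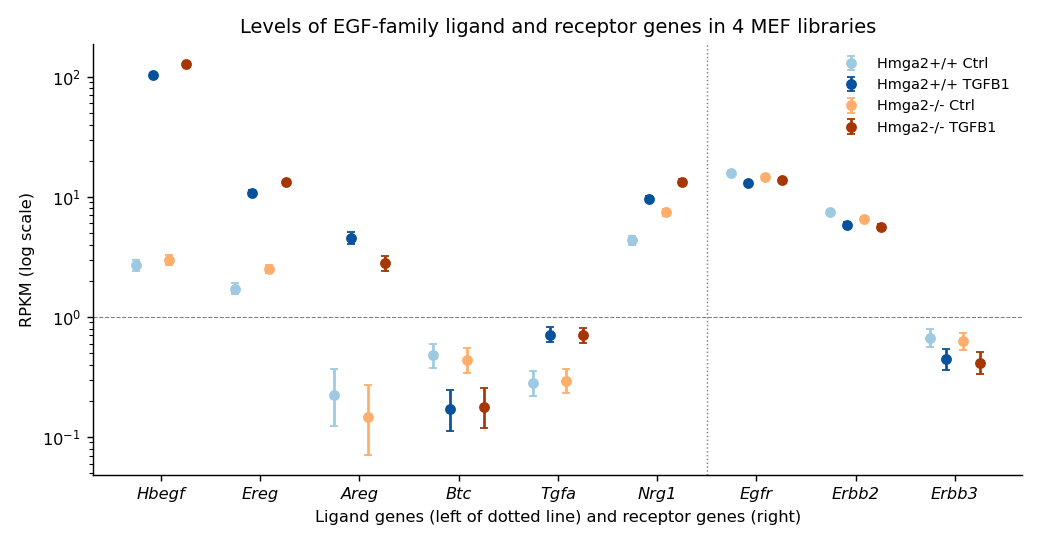
RPKM (log scale) of each EGF-family gene in the 4 libraries, 1 point per library with its exact 95% interval of counting error. The dashed line marks 1 RPKM. Hbegf moved from 2.71 and 2.98 RPKM in Ctrl to 104 and 128 RPKM in TGFB1, while Egfr stayed between 13.1 and 15.9 RPKM.

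Hbegf encodes heparin-binding EGF-like growth factor, a ligand of EGFR and ERBB4. The gene is at bases 36504927 to 36515805 of chromosome 18 (mm10, minus strand), and its transcript has 2364 bases. Its level was 2.71 RPKM in Hmga2+/+ Ctrl, 104 RPKM in Hmga2+/+ TGFB1, 2.98 RPKM in Hmga2-/- Ctrl and 128 RPKM in Hmga2-/- TGFB1, from 359, 14118, 399 and 17171 reads. Both TGFB1 libraries stood far above both Ctrl libraries. The rise was 38.5-fold in Hmga2+/+ MEF (log2 change 5.27, interval 5.12 to 5.42) and 42.8-fold in Hmga2-/- MEF (5.42, interval 5.28 to 5.57). Hbegf moved from above 58.7% of protein-coding genes to above 99.1% of them in Hmga2+/+ MEF, and from 60.5% to 99.2% in Hmga2-/- MEF. Among the 9894 genes that reached 1 RPKM in both Hmga2+/+ libraries its increase ranked 2, after Thbs4 (52.1-fold). Among the 9887 such genes in Hmga2-/- MEF it ranked 2 as well, after Gjb2 (86.6-fold). Of the other members in that ranking, Ereg stood at rank 26 in Hmga2+/+ and 47 in Hmga2-/- MEF, and Nrg1 at 256 and 620. Over all 10742 genes tested, which include genes under 1 RPKM in Ctrl, 11 genes had a larger log2 change than Hbegf in Hmga2+/+ MEF and 6 in Hmga2-/- MEF, while 80 and 114 had a larger one than Ereg and 391 and 773 a larger one than Nrg1.

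The table holds another Hbegf transcript, which starts at the same end of the gene, spans 36512679 to 36515805 and has 2917 bases. It covers part of the gene body, and its counted bases fill nearly all of its span. It thus counts bases outside the exons of the longer gene body and is not a like measure of the mRNA. It had 0.598 RPKM in Hmga2+/+ Ctrl, 17.8 RPKM in Hmga2+/+ TGFB1, 1.05 RPKM in Hmga2-/- Ctrl and 23.3 RPKM in Hmga2-/- TGFB1. Its level was thus below that of the longer gene body in each library. The log2 change was 4.89 (interval 4.60 to 5.20) in Hmga2+/+ and 4.46 (4.25 to 4.69) in Hmga2-/- MEF, so that by this transcript the response was the smaller in Hmga2-/- MEF and by the other it was not. The spans of the transcripts overlap, and a read in a shared exon counts for both.

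Ereg encodes epiregulin, a ligand of EGFR and ERBB4, and lies on the plus strand of chromosome 5 from 91074622 to 91093646. Its level was 1.72 RPKM in Hmga2+/+ Ctrl, 10.8 RPKM in Hmga2+/+ TGFB1, 2.52 RPKM in Hmga2-/- Ctrl and 13.2 RPKM in Hmga2-/- TGFB1. Both TGFB1 libraries were above both Ctrl libraries, and in each treatment the Hmga2-/- library was the higher. On the log2 scale TGFB1 over Ctrl was 2.65 (interval 2.50 to 2.81) in Hmga2+/+ and 2.39 (2.26 to 2.52) in Hmga2-/- MEF. An antisense gene, Gm19610, overlaps Ereg by 157 bases and had 0.264, 1.85, 0.567 and 1.34 RPKM in the same order of libraries. The library kit and the counting were stranded, so reads of the antisense gene were not counted for Ereg under the stated settings.

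Areg encodes amphiregulin, a ligand of EGFR, and lies downstream of Ereg on the same strand, from 91139599 to 91148432, with the promoter shown above. Its level was 0.222 RPKM in Hmga2+/+ Ctrl, 4.54 RPKM in Hmga2+/+ TGFB1, 0.147 RPKM in Hmga2-/- Ctrl and 2.80 RPKM in Hmga2-/- TGFB1. Few reads lie behind the Ctrl levels, 15 and 10, against 313 and 192 in the TGFB1 libraries. This is a log2 change of 4.35 (interval 3.61 to 5.21) in Hmga2+/+ and 4.25 (3.34 to 5.34) in Hmga2-/- MEF. In both Ctrl libraries the counting intervals of Areg and Tgfa, the lowest members, overlapped. With TGFB1 Areg stood above Btc, Tgfa and Erbb3 in both genotypes.

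Nrg1 encodes neuregulin 1, a ligand of ERBB3 and ERBB4 best known from nerve and heart. It lies on the minus strand of chromosome 8, and the transcript used, from 31818028 to 32009491, spans 17.9% of the annotated gene, so promoters farther out are not covered by it. Its level was 4.34 RPKM in Hmga2+/+ Ctrl, 9.63 RPKM in Hmga2+/+ TGFB1, 7.42 RPKM in Hmga2-/- Ctrl and 13.4 RPKM in Hmga2-/- TGFB1. The Hmga2-/- library was the higher in each treatment, and Nrg1 was the member ligand with the highest Ctrl level in both genotypes. Its log2 response was 1.15 (interval 1.01 to 1.30) in Hmga2+/+ and 0.86 (0.74 to 0.97) in Hmga2-/- MEF. All 8 Nrg1 transcripts in the table were higher in the TGFB1 than in the Ctrl library of their genotype, by log2 changes between 0.33 and 1.20 in Hmga2+/+ MEF and between 0.35 and 1.22 in Hmga2-/- MEF, and for 1 of them the interval in Hmga2+/+ MEF included 0. These transcripts overlap in position and are not separate measurements.

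Btc and Tgfa were the weakly expressed ligand genes. Btc encodes betacellulin and occupies bases 91357261 to 91402994 of chromosome 5, minus strand. Its level was 0.479 RPKM in Hmga2+/+ Ctrl, 0.171 RPKM in Hmga2+/+ TGFB1, 0.438 RPKM in Hmga2-/- Ctrl and 0.178 RPKM in Hmga2-/- TGFB1, from 77, 28, 71 and 29 reads. The log2 change was −1.49 (interval −2.17 to −0.85) in Hmga2+/+ and −1.30 (−1.98 to −0.66) in Hmga2-/- MEF. Btc was the member ligand with a lower level in TGFB1 than in Ctrl, while the other ligand genes had higher ones. Tgfa encodes transforming growth factor alpha, an EGFR ligand unrelated to TGFB1 in structure, and lies on the plus strand of chromosome 6 from 86195223 to 86275719. Its level was 0.279 RPKM in Hmga2+/+ Ctrl, 0.712 RPKM in Hmga2+/+ TGFB1, 0.292 RPKM in Hmga2-/- Ctrl and 0.705 RPKM in Hmga2-/- TGFB1. On the log2 scale TGFB1 over Ctrl was 1.35 (interval 0.95 to 1.77) in Hmga2+/+ and 1.27 (0.87 to 1.68) in Hmga2-/- MEF.

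Ereg, Areg and Btc form a run with Epgn, the gene of epigen, over 376 kb of chromosome 5 that holds no other protein-coding gene. Epgn, Ereg and Areg had higher values with TGFB1 in both genotypes, whereas Btc had lower ones. Epgn had 4, 16, 6 and 12 reads in the order Hmga2+/+ Ctrl, Hmga2+/+ TGFB1, Hmga2-/- Ctrl and Hmga2-/- TGFB1, with a log2 change of 1.96 (interval 0.34 to 4.01) in Hmga2+/+ and 0.99 (−0.53 to 2.69) in Hmga2-/- MEF. Epgn, Ereg and Areg lie on the plus strand and Btc, at the far end of the run, on the minus strand.

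**Figure D2:**
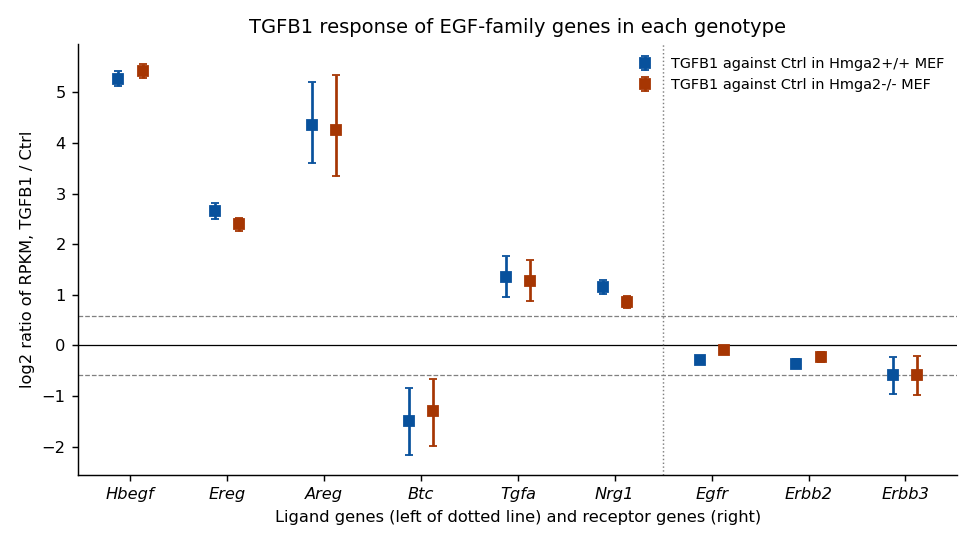
log2 ratio of RPKM in TGFB1 over Ctrl for each EGF-family gene in Hmga2+/+ and Hmga2-/- MEF, with exact 95% intervals of counting error. Dashed lines mark 1.5-fold. By the transcripts plotted, each gene has the same sign in both genotypes, from 5.27 and 5.42 for Hbegf to −1.49 and −1.30 for Btc.

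The receptor genes moved less. Egfr encodes the EGF receptor and lies on the plus strand of chromosome 11 from 16752203 to 16918158. Its level was 15.9 RPKM in Hmga2+/+ Ctrl, 13.1 RPKM in Hmga2+/+ TGFB1, 14.7 RPKM in Hmga2-/- Ctrl and 13.9 RPKM in Hmga2-/- TGFB1. This is a log2 change of −0.28 (interval −0.34 to −0.22) in Hmga2+/+ and −0.09 (−0.14 to −0.03) in Hmga2-/- MEF, which is beyond counting error and within 1.5-fold. A shorter Egfr transcript at the end of the gene had a log2 change of 0.03 (interval −0.18 to 0.23) in Hmga2-/- MEF, so the sign there depended on the transcript.

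Erbb2, the partner receptor, lies on the plus strand of chromosome 11 from 98412470 to 98437716. Its level was 7.46 RPKM in Hmga2+/+ Ctrl, 5.83 RPKM in Hmga2+/+ TGFB1, 6.55 RPKM in Hmga2-/- Ctrl and 5.61 RPKM in Hmga2-/- TGFB1. Its log2 response was −0.36 (interval −0.45 to −0.26) in Hmga2+/+ and −0.22 (−0.32 to −0.13) in Hmga2-/- MEF. Erbb3 encodes a neuregulin receptor with little kinase activity of its own and occupies bases 128567523 to 128589652 of chromosome 10, minus strand. Its level was 0.669 RPKM in Hmga2+/+ Ctrl, 0.445 RPKM in Hmga2+/+ TGFB1, 0.624 RPKM in Hmga2-/- Ctrl and 0.416 RPKM in Hmga2-/- TGFB1. The log2 change was −0.59 (interval −0.97 to −0.22) in Hmga2+/+ and −0.58 (−0.98 to −0.20) in Hmga2-/- MEF. All 3 receptor genes thus had lower values in the TGFB1 library of each genotype.

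**Figure D3:**
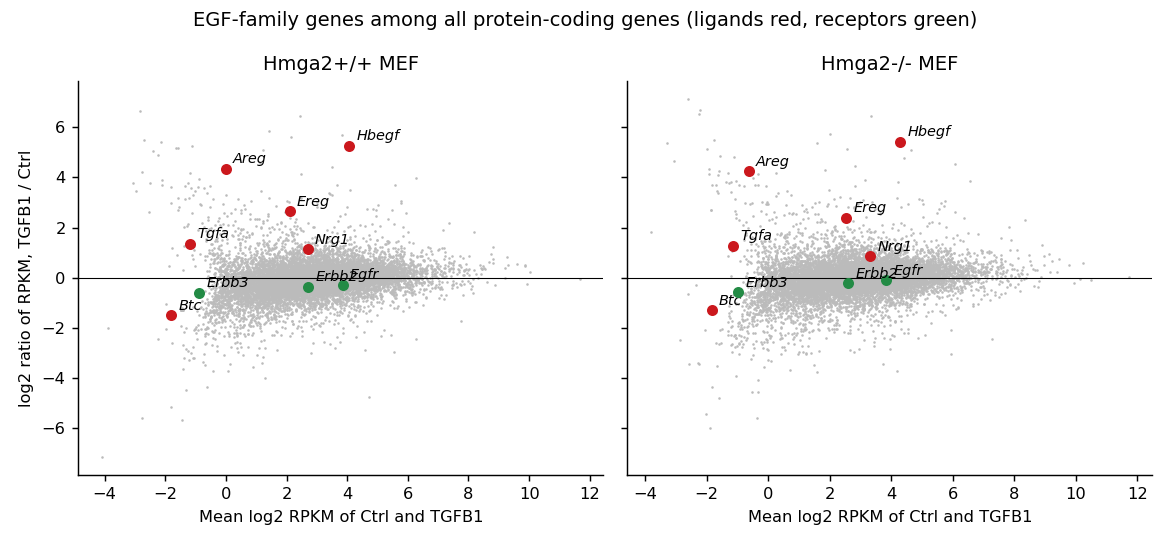
log2 ratio of RPKM in TGFB1 over Ctrl against the mean log2 RPKM of both libraries, for protein-coding genes that reach 1 RPKM in any of the 4 libraries and have reads in both (grey) and for the EGF-family genes (ligands red, receptors green). Hbegf lies at the upper edge of the cloud in both panels, at 5.27 and 5.42, while Egfr and Erbb2 lie within it, between −0.36 and −0.09.

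The order of the members changed with treatment. In Hmga2+/+ Ctrl the order from the highest level was Egfr, Erbb2, Nrg1, Hbegf, Ereg, Erbb3, Btc, Tgfa and Areg. The counting intervals of the neighbours Erbb3 and Btc overlapped, as did those of Tgfa and Areg. Overlapping intervals do not show that levels were equal. In Hmga2-/- Ctrl Nrg1 stood above Erbb2. The intervals of Hbegf and Ereg overlapped there, as did those of all neighbours from Erbb3 down to Areg. In Hmga2+/+ TGFB1 the order was Hbegf, Egfr, Ereg, Nrg1, Erbb2, Areg, Tgfa, Erbb3 and Btc, with every neighbour pair apart by counting error. In Hmga2-/- TGFB1 the order differed only in that Nrg1 stood above Ereg. The interval of Nrg1, at 13.4 RPKM, overlapped those of Egfr, at 13.9 RPKM, and Ereg, at 13.2 RPKM. The level of Hbegf was 0.171 of the Egfr level in Hmga2+/+ Ctrl and 0.202 of it in Hmga2-/- Ctrl. With TGFB1 it was 7.96 times the Egfr level in Hmga2+/+ and 9.18 times in Hmga2-/- MEF. By the other Hbegf transcript, at 17.8 and 23.3 RPKM in these libraries, Hbegf was still above Egfr, by a smaller ratio.

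Summed over the 6 member ligand genes, the level was 9.75 RPKM in Hmga2+/+ Ctrl, 130.1 RPKM in Hmga2+/+ TGFB1, 13.8 RPKM in Hmga2-/- Ctrl and 158 RPKM in Hmga2-/- TGFB1. Hbegf made up 27.8% of that sum in Hmga2+/+ Ctrl, 80.1% in Hmga2+/+ TGFB1, 21.6% in Hmga2-/- Ctrl and 80.8% in Hmga2-/- TGFB1. The sum was thus carried by Nrg1 and Hbegf in the Ctrl libraries and by Hbegf in the TGFB1 libraries. With the transcript of the longest counted length the sums were 3.65, 34.8, 5.24 and 41.1 RPKM in the same order. Hbegf then had 17.8 RPKM in Hmga2+/+ TGFB1 and 23.3 RPKM in Hmga2-/- TGFB1, a smaller share of each sum. The ligand sum in TGFB1 was 13.4-fold that in Ctrl in Hmga2+/+ and 11.4-fold in Hmga2-/- MEF, and without Hbegf, the gene used to choose the group, it was 3.68-fold and 2.80-fold. The receptor sum was 24.0 RPKM in Hmga2+/+ Ctrl, 19.4 RPKM in Hmga2+/+ TGFB1, 21.9 RPKM in Hmga2-/- Ctrl and 19.9 RPKM in Hmga2-/- TGFB1. Levels of mRNA were measured, and no protein was.

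**Figure D4:**
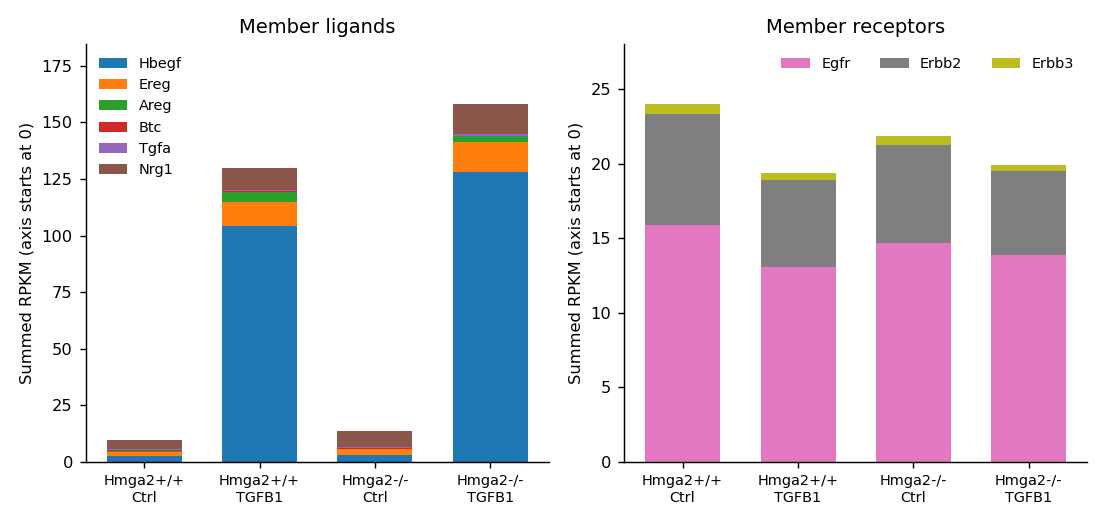
Summed RPKM of the 6 member ligand genes (left) and the 3 member receptor genes (right) in each library, stacked by gene, on axes that start at 0 and differ in scale. The ligand sum goes in Hmga2+/+ MEF from 9.75 to 130.1 RPKM, and in Hmga2-/- MEF from 13.8 to 158 RPKM, mostly through Hbegf, while the receptor sum stays between 19.4 and 24.0 RPKM.

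Between the genotypes, Nrg1 and Areg were the members called by the transcripts reported. In Ctrl, 1 member was called higher in Hmga2-/- than in Hmga2+/+ MEF, against 2.37% of genes, and 1 was called lower, against 1.64%. The higher one was Nrg1, with a log2 ratio of Hmga2-/- to Hmga2+/+ of 0.77 (interval 0.62 to 0.93). This call depended on the transcript. By the Nrg1 transcripts of 1893 and 1316 bases the ratio was 0.48 and −0.11, under 1.5-fold, and by all others it passed 1.5-fold. The lower one was Areg, whose log2 ratio of −0.59 (interval −1.91 to 0.65) rested on 10 and 15 reads, so that a difference was not detectable at this depth. Ereg, with a log2 ratio of 0.55, stayed under 1.5-fold, which is 0.58 on the log2 scale, and Hbegf had a log2 ratio of 0.14 (interval −0.07 to 0.35). With the transcript of the longest counted length the Hbegf ratio was 0.82, and 2 members were called higher.

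In TGFB1, 0 members were called higher in Hmga2-/- MEF, against 3.12% of genes, and 1 was called lower, against 1.98%. This was Areg, with 4.54 RPKM in Hmga2+/+ and 2.80 RPKM in Hmga2-/- TGFB1 (log2 ratio −0.70, interval −0.96 to −0.43). Hbegf had a log2 ratio of 0.29 (interval 0.26 to 0.32), Ereg of 0.28 and Nrg1 of 0.48, all under 1.5-fold. By the Nrg1 transcript of 1316 bases the ratio was 0.78, and by all other Nrg1 transcripts it was under 1.5-fold. The Areg call was lost with 1 added to RPKM (log2 ratio −0.54) and at 2-fold. The level of Ereg was 2.39 times that of Areg in Hmga2+/+ TGFB1 and 4.71 times in Hmga2-/- TGFB1.

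The response itself was compared between genotypes as the log2 change in Hmga2-/- minus that in Hmga2+/+ MEF. For Hbegf the difference was 0.15 (interval −0.06 to 0.36), and with the other Hbegf transcript it was −0.43, so that its sign depended on the transcript. The Ereg response was smaller in Hmga2-/- MEF beyond counting error, with a difference of −0.26 (interval −0.47 to −0.06). By the transcript reported, so was that of Nrg1, with −0.30 (−0.48 to −0.11). By the transcripts reported, both genes had the higher Ctrl level in Hmga2-/- MEF. For Nrg1 the sign of the difference depended on the transcript. The Nrg1 transcript of 1316 bases, on 56 to 131 reads per library, rose more without Hmga2 (log2 1.22, against 0.33 with it). All other Nrg1 transcripts rose less without Hmga2, that of 1893 bases only slightly so (1.08 against 1.14). For Egfr, whose level was lower with TGFB1, the difference was 0.19 (interval 0.11 to 0.27). For Areg the interval, −1.38 to 1.25 around −0.10, was too wide to place the difference on either side of 0. The intervals of Btc, Tgfa, Erbb2 and Erbb3 included 0 as well.

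The rest of the family was nearly silent. Egf, Epgn, Nrg2, Nrg3, Nrg4 and the receptor gene Erbb4 stayed under 1 RPKM in all 4 libraries. Egf, which encodes the ligand that names the family, had between 0.102 and 0.139 RPKM. Nrg3 had no reads in any library, Nrg4 had 1 read in all 4 libraries together, and Nrg2 had 6 to 16 reads per library. Erbb4, the other receptor of HBEGF and of neuregulins, had between 0.00900 and 0.0270 RPKM, from 6 to 18 reads.

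Around the ligands and receptors, 4 lists of genes were followed, and they are described by their counts beside the shares of all genes given above. Of 8 genes for the release of ligands, 1 rose in Hmga2+/+ and 2 in Hmga2-/- MEF and 0 fell, with a median log2 change of 0.05 and 0.30. Adam12, which encodes a membrane protease able to cut HBEGF, had 0.642 RPKM in Hmga2+/+ Ctrl, 31.2 RPKM in Hmga2+/+ TGFB1, 0.986 RPKM in Hmga2-/- Ctrl and 34.7 RPKM in Hmga2-/- TGFB1. Its rise, 48.6-fold and 35.2-fold, was of the size of that of Hbegf, whereas Adam17, the gene of the main ligand-releasing protease, had between 17.0 and 18.6 RPKM in the 4 libraries. Adam19 was the other gene called in Hmga2-/- MEF, with 2.54 RPKM in Ctrl and 3.86 RPKM in TGFB1.

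Of 8 genes that restrain EGF-family receptors, 4 rose in Hmga2+/+ and 3 in Hmga2-/- MEF and 0 fell, with a median log2 change of 0.54 and 0.41. Errfi1, whose product binds and blocks the EGFR kinase, had 10.8 RPKM in Hmga2+/+ Ctrl, 34.6 RPKM in Hmga2+/+ TGFB1, 11.6 RPKM in Hmga2-/- Ctrl and 33.9 RPKM in Hmga2-/- TGFB1, a rise of 3.21-fold and 2.93-fold. Lrig1, which encodes a membrane protein that promotes loss of the receptors, rose in Hmga2+/+ MEF from 4.83 to 8.53 RPKM, and in Hmga2-/- MEF from 3.48 to 9.58 RPKM. Both inhibitor genes rose while the Egfr mRNA stayed within 1.5-fold.

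Of 13 genes for adaptors and kinases between receptor and ERK, 0 rose and 2 fell in Hmga2+/+ MEF, and 1 rose and 1 fell in Hmga2-/- MEF, with a median log2 change of −0.02 and 0.08. None of them changed 2-fold in either genotype. Mapk3, the gene of ERK1, fell in both genotypes, in Hmga2+/+ MEF from 18.0 to 9.91 RPKM, and in Hmga2-/- MEF from 16.2 to 9.44 RPKM.

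Of 12 genes known as targets of ERK, 7 rose and 1 fell in Hmga2+/+ MEF, and 8 rose and 1 fell in Hmga2-/- MEF, with a median log2 change of 0.74 and 1.13. Dusp5, the gene of a nuclear ERK phosphatase, rose in Hmga2+/+ MEF from 1.47 to 12.0 RPKM, and in Hmga2-/- MEF from 2.08 to 19.0 RPKM. Dusp6, the gene of a cytoplasmic ERK phosphatase, rose from 1.90 to 9.97 RPKM and from 2.90 to 11.8 RPKM. The transcription factor gene Etv4 rose from 0.764 to 3.89 RPKM and from 0.651 to 3.90 RPKM. Fosl1, which encodes a subunit of the transcription factor AP-1, rose 3.58-fold and 3.80-fold, and Myc 3.73-fold and 3.56-fold. Egr1 and Ier3, known as early response genes, rose 1.64-fold and 1.69-fold in Hmga2+/+ and 2.20-fold and 2.17-fold in Hmga2-/- MEF. Fos, of the same list, stayed within 1.5-fold, with log2 changes of 0.03 in Hmga2+/+ and −0.18 in Hmga2-/- MEF. Spry2, the gene of an inhibitor of the RAS cascade, fell in Hmga2+/+ MEF from 10.5 to 6.08 RPKM, and in Hmga2-/- MEF from 9.36 to 5.31 RPKM. Many of these genes also answer other signals, and whether the ligands took part in their change was not tested.

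**Figure D5:**
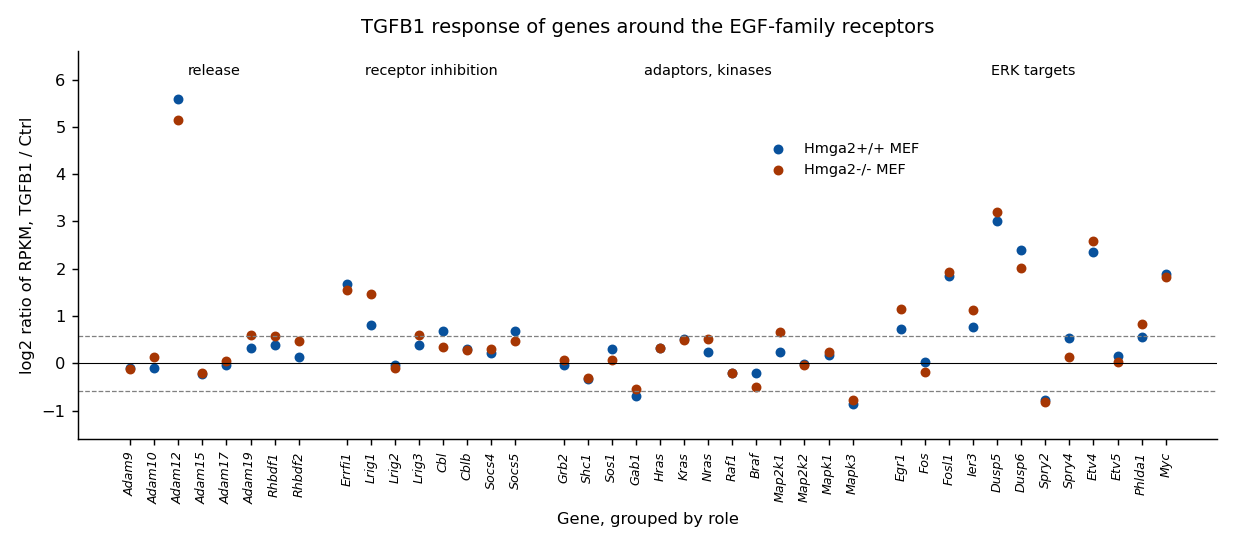
log2 ratio of RPKM in TGFB1 over Ctrl for genes of ligand release, receptor inhibition, adaptors and kinases, and ERK targets, with 1 point per gene and genotype. Dashed lines mark 1.5-fold. Adam12 stands apart at 5.60 and 5.14, Dusp5 is at 3.02 and 3.19, and the adaptors and kinases lie between −0.86 and 0.66.

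Markers of other cell types moved with TGFB1 as well. The summed epithelial level, with no marker at 1 RPKM, was 0.772 RPKM in Hmga2+/+ Ctrl, 1.21 RPKM in Hmga2+/+ TGFB1, 0.443 RPKM in Hmga2-/- Ctrl and 1.09 RPKM in Hmga2-/- TGFB1. Epcam, an epithelial adhesion gene, had 24, 78, 14 and 33 reads in that order, and the keratin gene Krt14 had 5, 16, 3 and 24 reads. Krt18, another keratin gene, had 33, 20, 14 and 25 reads, so it was lower with TGFB1 in Hmga2+/+ MEF. Cdh1 had 21, 23, 21 and 45 reads, and Krt8 and Krt5 had at most 5 reads in any library. Of 4 endothelial markers, Kdr, a receptor gene, rose in Hmga2+/+ MEF from 1.11 to 4.46 RPKM, and in Hmga2-/- MEF from 1.46 to 7.39 RPKM, while Tek fell from 2.75 to 0.330 RPKM and from 5.65 to 0.686 RPKM. The summed endothelial level ran from 3.89 to 8.14 RPKM, and Pecam1 and Cdh5 stayed under 1 RPKM. Of 4 neural and Schwann cell markers, Tubb3 rose in Hmga2+/+ MEF from 0.913 to 2.81 RPKM, and in Hmga2-/- MEF from 0.957 to 4.37 RPKM, and Sox10 stayed under 1 RPKM and was at 0 in 3 libraries. Immune markers summed to between 1.36 and 1.97 RPKM, with 1 of 4 at 1 RPKM or more, and Ptprc was at 0 in both Hmga2+/+ libraries. Among the fibroblast markers Dcn fell from 7.20 to 2.68 RPKM and from 8.46 to 2.07 RPKM, and Thy1 rose from 5.31 to 8.54 RPKM and from 4.11 to 8.88 RPKM. The part of any such cells in the levels of the EGF-family genes was not tested.

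Thbs4, F2rl1, Spp1 and Ptgs2 were among the 5 genes whose pattern over the 4 libraries was nearest to that of Hbegf, out of 9747 other protein-coding genes that reached 1 RPKM in every library. Nearness was the Euclidean distance between log2 RPKM centred on each gene's mean over the libraries, and it was 0.663 for Thbs4, 1.06 for F2rl1, 1.19 for Spp1 and 1.63 for Ptgs2. F2rl1, which encodes a receptor cut open by proteases, had 1.33, 23.4, 1.51 and 33.0 RPKM in the order Hmga2+/+ Ctrl, Hmga2+/+ TGFB1, Hmga2-/- Ctrl and Hmga2-/- TGFB1. Spp1, the gene of the matrix protein osteopontin, had 19.4, 303, 14.0 and 321 RPKM. Ptgs2, the gene of a prostaglandin synthase, had 3.51, 45.6, 4.98 and 69.5 RPKM. Adam12, at 0.642 RPKM in Hmga2+/+ Ctrl and 0.986 RPKM in Hmga2-/- Ctrl, did not reach 1 RPKM in every library. It was therefore not ranked, although its rise was of the size of that of Hbegf. With 4 libraries, this ranking describes these libraries and no more.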

How the data were processed

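Total RNA of 4 MEF cultures was sequenced by the authors, 1 library for each combination of Hmga2 genotype and treatment. The submitters' processing notes name Trimmomatic, HISAT2 2.1.0 and HOMER and the mm10 build. The authors deposited RPKM per UCSC known gene transcript, rounded to 3 decimals and scaled to mapped reads, and the length of each transcript. Exons are the counted feature by the file header and genes by the study's methods, which would change levels where introns hold reads. Whether duplicates were pooled is not stated.

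Transcripts were assigned to GENCODE release M21 genes by an overlap of at least 50% of their span on the same strand, which named 57708 of 63759. Mapped reads were taken as the depth at which low RPKM values of transcripts under 600 bases gave whole reads, and 100.0% of 1210 or more values under 20 reads per library lay within 0.1 of a whole read. A value of 0 RPKM was set to 0.001 for log2 ratios, as in the study's methods. Ratios have exact (Clopper-Pearson) intervals, levels exact Poisson intervals and differences of responses exact conditional intervals, at 95%. No count test was run, since each condition has 1 library and the deposited values are RPKM. Calls and intervals were tested on simulated reads with known changes. Python 3.11.15, numpy 2.4.6, pandas 2.3.3, scipy 1.17.1 and matplotlib 3.10.9 were used.

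The members and the gene lists were chosen with earlier results of these data known. Besides all members, other EGF-family genes, Hmga2 and TGFB1 targets, list genes were to be named where they reached 1 RPKM and changed at least 2-fold on TGFB1 in a genotype. Adam17, Adam19, Fos, Mapk3 and Spry2 fall outside this rule and were named after their values were seen. Alternatives changed the value added to RPKM (0.1 or 1), the limit of 1 RPKM, the fold (2), the scaling and the transcript used. All 4 RPKM columns were used. Promoter sequences were matched by symbol for 5 members (Areg, Btc, Tgfa, Egfr and Erbb2). Some genes that the naming rule or the marker lists hold are not reported here.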

Additional observations from a re-analysis of the deposited data

Results flagged for a closer look

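For 8 listed genes outside the members with more than 3 reads in every library, the values in Hmga2+/+ and Hmga2-/- MEF had opposite signs on TGFB1. Differences are given as Hmga2-/- minus Hmga2+/+ with exact 95% intervals of counting error, and none could be set against replicates. The log2 change of Egf was 0.22 in Hmga2+/+ MEF, and −0.18 in Hmga2-/- MEF, on 27 to 37 reads per library (difference −0.40, interval −1.48 to 0.70). Adam10, a protease gene, had −0.10 and 0.13 (difference 0.24, interval 0.17 to 0.30). Adam17 had −0.04 and 0.04, the adaptor gene Grb2 −0.03 and 0.08, and Fos, which encodes a subunit of AP-1, 0.03 and −0.18, and the intervals of these 3 differences included 0. Among the cell type markers, Krt18, a keratin gene under 1 RPKM in every library, had −0.75 and 0.83 on 14 to 33 reads (difference 1.58, interval 0.22 to 2.95). The fibroblast markers Col1a2, with −0.12 and 0.03, and Vim, with 0.22 and −0.11, have no interval here. All of these values but those of Krt18 lie within 1.5-fold.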

How the results depend on the processing

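No called value changed its direction under the alternatives run. Of 56 recomputed counts of called members 46 stayed within 1.5 times the reported count, and of 180 log2 changes 159 stayed within their counting interval. Part of these could not differ. The transcript with the highest mean RPKM was the reported one for every member, and the longest counted length chose another transcript only for Hbegf and Nrg1. The totals thus overstate how far the results were tried. With the transcript of the longest counted length, the log2 response of Hbegf was 4.89 for Hmga2+/+ and 4.46 for Hmga2-/- MEF, its ratio of Hmga2-/- to Hmga2+/+ was 0.82 in Ctrl and 0.39 in TGFB1, and the difference of its responses was −0.43, the sign opposite to that reported. With that choice the difference for Nrg1 was −0.85, 2 members were higher in Hmga2-/- Ctrl, and the ligand sums were 3.65, 34.8, 5.24 and 41.1 RPKM in Hmga2+/+ Ctrl, Hmga2+/+ TGFB1, Hmga2-/- Ctrl and Hmga2-/- TGFB1. For Hbegf and Nrg1 the transcript so chosen covers less of the gene body than the one reported, with little or no sequence spliced out. With 1 added to RPKM the Hbegf changes were 4.83 and 5.01. With median-ratio scaling the Hbegf ratio in TGFB1 was 0.26. Without the limit of 1 RPKM, 2 members were lower on TGFB1 in each genotype (2 in Hmga2+/+ and 2 in Hmga2-/- MEF). The Areg call in Ctrl was lost (0 lower) with 0.1 or 1 added, with median-ratio scaling and at 2-fold, and its call in TGFB1 (0 lower) with 1 added and at 2-fold. At 2-fold 0 members were higher in Hmga2-/- Ctrl, and the Nrg1 call on TGFB1 in Hmga2-/- MEF was lost at 2-fold and with the longest counted transcript (3 members called). Scaling moved the median of all genes by at most 0.03 on the log2 scale. No paired analysis was possible because each condition has 1 library, and for the same reason no library could be left out. Depth limits Areg in Ctrl, Btc, and the near-silent family genes.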
